A study of Oncorhynchus mykiss with 70 samples.

Results

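The jaw adductor, the muscle that closes the mouth, was compared with the axial muscle of the trunk in adult rainbow trout (Oncorhynchus mykiss) for RNA levels of 49 activin receptor pathway genes. The comparison was defined by sample title and used 10 of the 70 samples of a tissue atlas of 23 tissues: 4 of Adductor Skeletal Muscle, 3 of Epaxial Skeletal Muscle (above the horizontal septum of the trunk) and 3 of Hypaxial Skeletal Muscle (below it). The 6 Epaxial and Hypaxial samples together are called trunk here. All 10 samples are labelled male and came from untreated clonal fish (lines named Swanson and Oregon State University), grown to 2 to 3 years. The labels do not say which line each sample came from, nor whether different muscles came from the same fish. The p-values therefore measure a spread between samples and not between known fish. For the edgeR tests of genes and pairs, that spread was estimated within tissues over all 70 samples, and not from these 10 alone. Reporter barcodes bound to RNA were counted with a custom NanoString code set, which uses no amplification, of 49 pathway probes, 3 reference genes, 6 positive controls and 8 negative controls.

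Activins and myostatin are secreted dimers that bind a type II receptor, which then activates a type I receptor. The type I receptor phosphorylates the receptor-regulated Smads (Smad2 and Smad3), and these enter the nucleus with the common Smad, Smad4. Follistatin binds the ligands outside the cell, bambi is a receptor-like membrane protein without a working kinase domain that dampens signalling, and inhibitory Smads act inside the cell. In skeletal muscle the pathway is known for restraining growth, with myostatin as its best known ligand. Salmonids went through a whole-genome duplication, and the panel holds 21 pairs of duplicates, written here with a final 1 or 2.

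Total counts of the 10 samples ran from 69085 to 99178, and positive and negative controls are part of these totals. Adductor 1 stood apart: its 49 pathway genes gave 511 counts, against 1446 to 4581 in the other Adductor samples and 1702 to 5327 in trunk. In Adductor 1, 7 of 49 genes exceeded background, set 2 SD above the mean negative control, against 26 to 41 in the other Adductor samples and 24 to 37 in trunk. The reference genes actb, ef1a and tbp had a geometric mean of 264 counts in Adductor 1, 551 to 1748 in the other Adductor samples and 473 to 2137 in trunk. Negative controls averaged 8.62, 2.5, 5.38 and 6.5 counts in Adductor 1 to 4, against 8.12 to 11.5 in trunk. Each count was divided by the sample's reference factor, its geometric mean of the 3 reference genes relative to that of the 10 samples, and is called the reference-scaled count below. A low sample is raised by this step, background included, so the calls of Adductor minus trunk are given with and without Adductor 1. Other Adductor values include this sample unless stated.

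The panel holds no marker of a single cell type. The muscle gene mstna1 had 11, 243, 109 and 707 counts in Adductor 1 to 4, against 163, 120 and 593 in Epaxial and 232, 394 and 420 in Hypaxial. In Adductor 1 these 11 counts did not exceed the background threshold, beside a negative control mean of 8.62, so its label as muscle could not be checked with this gene. As for other tissues, the inhibin alpha probes inhab1 and inhab2 are high in gonads, and the first counts both loci per the authors' list. They summed to 3.17 to 34.8 reference-scaled counts in Adductor and 4.43 to 54.4 in trunk (highest in Hypaxial 1). In Testes the sum was 592 to 663 and in Ovaries 75.2 to 1977, and no value was 0.

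**Figure D1:**
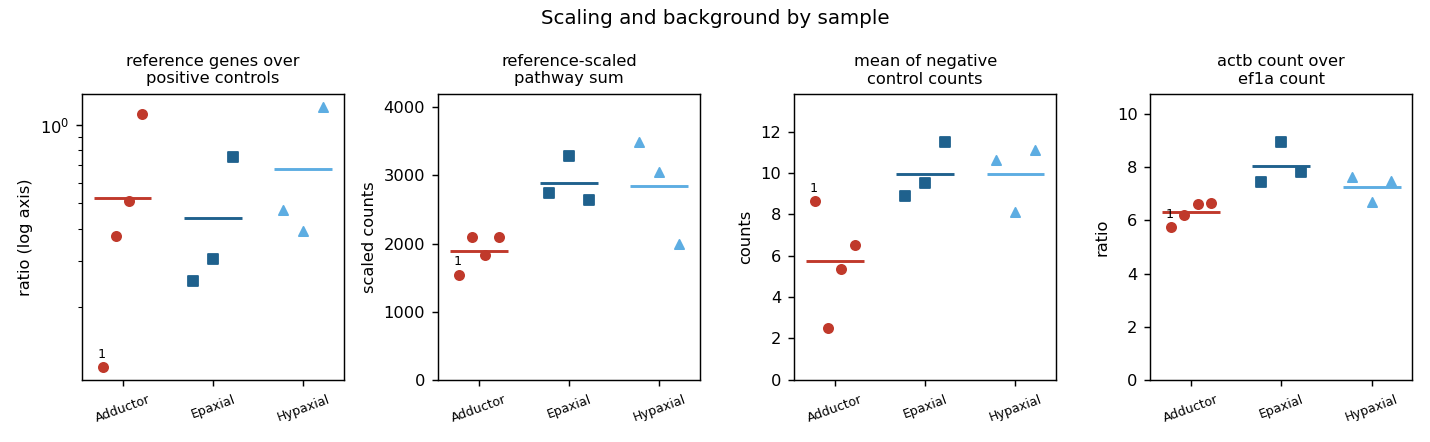
Scaling and background in each sample of Adductor (circles, Adductor 1 marked), Epaxial (squares) and Hypaxial (triangles); horizontal lines are group means. From the left, the panels show the reference genes over the positive controls (log axis), the reference-scaled sum of the 49 pathway genes, the mean negative control count, and the actb count over the ef1a count. The reference genes overlap between the muscles apart from Adductor 1, while the actb to ef1a ratio is below that of trunk in all 4 Adductor samples.

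Genes were lower in the jaw muscle, and none was called higher. In Adductor, 7 of 49 genes were below trunk past an adjusted p of 0.05 (14.3%, edgeR's quasi-likelihood test with Benjamini-Hochberg adjustment over 49 genes), 0 were above it, and 10 had an unadjusted p under that value. The called genes were the common Smad copy smad4aa1, both copies of the decoy receptor gene bambi, follistatin fsta, the activin beta B chain copy inhbbb2, and the type I receptor genes acvr1ca2 and acvr1ab2. Without Adductor 1 the count was 8 of 49 (16.3%), the same 7 genes with the activin beta C chain copy inhbcb2 added, again with 0 above trunk and 8 at an unadjusted p under the threshold. Reference-scaled counts did not overlap between the 4 Adductor and the 6 trunk samples for 8 genes (16.3%), which were these same 8. The median over all 49 genes was −0.32 on the log2 scale, with 34 genes measured below trunk and 15 above. Leaving out Adductor 2 or Adductor 4 left 3 called genes (smad4aa1, bambia1 and bambia2), and leaving out Hypaxial 1 left 4 (these with inhbbb2). In whole muscle, fewer cells of a type and less RNA per cell cannot be told apart.

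The split of calls moved with the scale. When each sample was scaled by its pathway genes instead, the median moved to 0.27, 5 genes were lower (smad4aa1, bambia1, bambia2, fsta and inhbbb2) and 3 were higher (inhbaa1, smad4bb1 and smad4bb2). TMM and DESeq2's size factors each gave 7 lower and 2 higher, limma on log2(reference-scaled count + 10) gave 10 lower and 0 higher, and subtraction of the negative controls gave 4 lower and 1 higher. The ratio of actb to ef1a counts was 5.75, 6.21, 6.60 and 6.63 in Adductor, against 6.67 to 8.95 in trunk. The ratio of actb to tbp counts was 171 ± 42.8 in Adductor (SD, n = 4) and 171 ± 45.6 in trunk (SD, n = 6). Which reference gene differed between the muscles was not tested. Scaling by ef1a with tbp, which leaves actb out and keeps ef1a, gave 8 lower and 0 higher.

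The common Smad pair carried the clearest difference. Smad4 is the shared partner that carries activated Smads into the nucleus, and the panel has a probe for each of 2 smad4aa copies: smad4aa1 (NCBI gene identifier 110525240, chromosome 6 in the authors' list) and smad4aa2 (101268920, chromosome 11). Their probe targets are shown because the results turn on telling these copies apart. A short run shared by the targets does not by itself show that the probes do so. The windows of 30 bases come from the 100-base targets of the authors' probe list, and the capitals mark the longest run that both targets share, 6 bases.
smad4aa1: accttgtatggtTATCCAgagcatagttct
smad4aa2: acagcaagtgtgacTATCCAtttaattttg

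The smad4aa1 reference-scaled counts were 36.3, 27.6, 20.6 and 25.1 in Adductor 1 to 4, against 135, 282 and 110.0 in Epaxial and 193, 173 and 92.3 in Hypaxial. All 4 Adductor samples lay below all 6 trunk samples. The log2 difference was −2.60 ± 0.45 (SE, n = 4 and 6, edgeR, adjusted p = 2.36e-05), a level 6.07-fold lower in Adductor. It exceeded background in 3 of 4 Adductor and 6 of 6 trunk samples, and was called when any 1 sample was left out. Its duplicate smad4aa2 had 78.7, 66.7, 121 and 105 in Adductor, against 114, 106 and 134 in Epaxial and 136, 167 and 102 in Hypaxial. The smad4aa2 ranges overlapped, and its log2 difference of −0.44 ± 0.26 did not pass (edgeR, adjusted p = 0.354).

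Both copies of the decoy receptor gene bambi were lower in Adductor. Bambi resembles a type I receptor but lacks the kinase that passes the signal on. The copies are bambia1 (gene 100301651, chromosome 11) and bambia2 (gene 110490039, chromosome 15), and their target windows are shown because the copies moved together. Capitals again mark the longest shared run.
bambia1: agatcccatagcGAACGCtgccgacatgtg
bambia2: gaggacagaattGAACGCaagccttgtggt

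For bambia1 the reference-scaled counts were 66.6, 46.4, 32.5 and 28.8 in Adductor, against 233, 356 and 151 in Epaxial and 273, 201 and 114 in Hypaxial. For bambia2 they were 6.05, 4.35, 6.35 and 11.4 in Adductor, against 49.8, 74.3 and 40.9 in Epaxial and 63.1, 43.2 and 37.0 in Hypaxial. The groups did not overlap for either copy. The log2 differences were −2.37 ± 0.52 for bambia1 (edgeR, adjusted p = 8.07e-04) and −2.78 ± 0.66 for bambia2 (adjusted p = 0.00163). In Adductor, bambia2 exceeded the background threshold in 1 of 4 samples, so its difference has only a low and uncertain count on that side, whereas bambia1 exceeded it in 4 of 4 and both copies did in 6 of 6 trunk samples.

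Follistatin, which binds and neutralises activins and myostatin, was lower in Adductor as well. The fsta probe (gene 100301646, chromosome 6) recognises a pair of follistatin loci per the authors' list, so their RNA is counted together. Its whole 100-base target is shown because no second probe separates these loci.
fsta: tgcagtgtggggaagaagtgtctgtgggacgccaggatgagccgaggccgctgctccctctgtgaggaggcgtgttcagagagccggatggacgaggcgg

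Reference-scaled counts of fsta were 18.2, 10.2, 22.2 and 19.7 in Adductor, against 75.5, 79.3 and 54.1 in Epaxial and 94.2, 59.9 and 35.1 in Hypaxial. The highest Adductor value lay below the lowest trunk value, and fsta exceeded background in 3 of 4 Adductor and 6 of 6 trunk samples. The log2 difference was −1.90 ± 0.59 (edgeR, adjusted p = 0.0207), and −1.91 ± 0.65 without Adductor 1 (adjusted p = 0.0417). With the negative controls subtracted it was −2.43 and did not pass (edgeR, adjusted p = 0.101), nor did it without Adductor 2, Adductor 4 or Hypaxial 1 (adjusted p = 0.0783, 0.0529 and 0.0662).

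**Figure D2:**
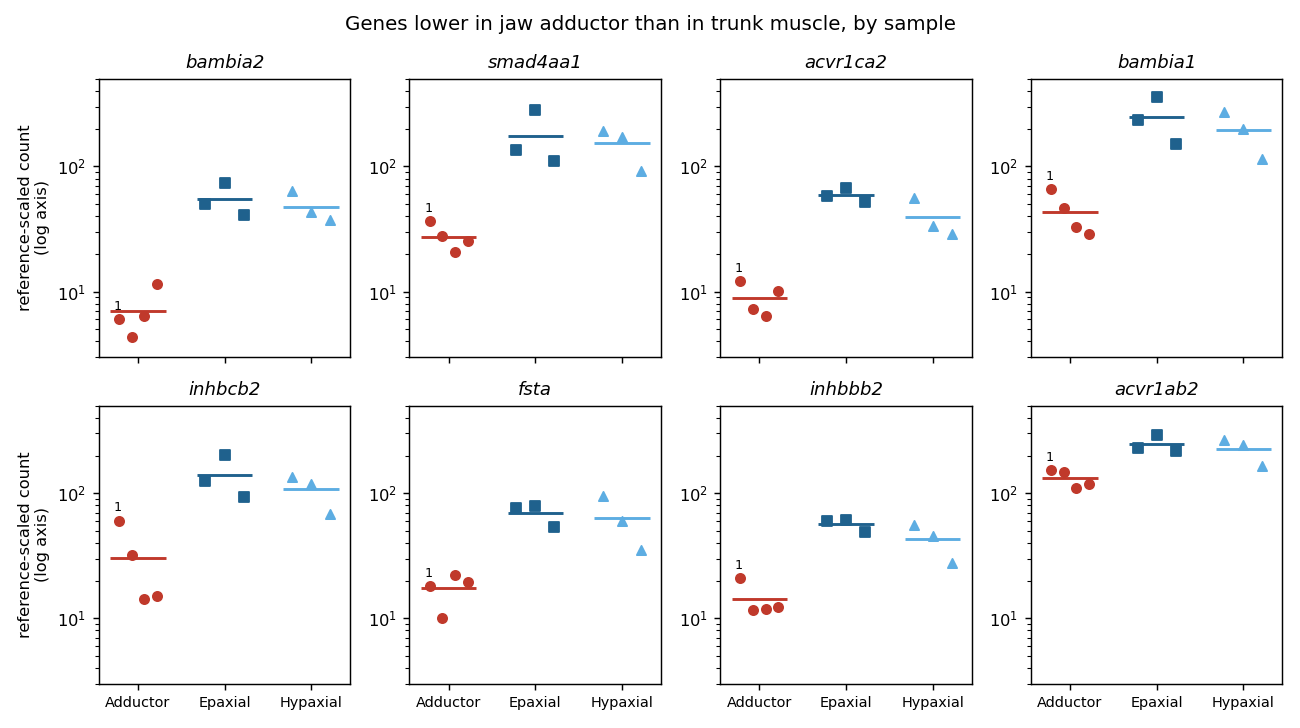
Reference-scaled counts (log axis) in every sample of the 8 genes past the threshold with or without Adductor 1, ordered by log2 difference; circles are Adductor (Adductor 1 marked), squares Epaxial, triangles Hypaxial, and lines are group means. All 4 Adductor samples lie below all 6 trunk samples in each panel; inhbcb2 passed only without Adductor 1.

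Among the ligands, 1 of 17 probes passed with all samples, beside 14.3% of all 49 genes. Activin beta B chains form activin B, and the copy inhbbb2 (gene 110495886, chromosome 18) had reference-scaled counts of 21.2, 11.6, 11.9 and 12.3 in Adductor, against 59.5, 60.8 and 48.9 in Epaxial and 55.4, 45.5 and 27.7 in Hypaxial. Adductor 1 was the highest of its group and still below every trunk sample, but its value rests on 7 counts, under its negative control mean of 8.62. The gene exceeded the background threshold in 2 of 4 Adductor and 6 of 6 trunk samples. The log2 difference was −1.83 ± 0.53 (edgeR, adjusted p = 0.0132), and −2.03 ± 0.59 without Adductor 1 (adjusted p = 0.0138). It did not pass without Adductor 2 or Adductor 4 (edgeR, adjusted p = 0.0581 and 0.0529). The other 3 beta B probes ran from −0.31 to 0.58 and did not pass.

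The activin beta C chain copy inhbcb2 (gene 110527696, chromosome 7) had reference-scaled counts of 60.5, 31.9, 14.3 and 15.1 in Adductor, against 125, 203 and 93.3 in Epaxial and 135, 119 and 68.4 in Hypaxial. The groups did not overlap, Adductor 1 had the highest value of its group, and the gene exceeded background in 3 of 4 Adductor and 6 of 6 trunk samples. The difference of −2.09 ± 0.78 did not pass with all samples (edgeR, adjusted p = 0.0628). Without Adductor 1 it was −2.61 ± 0.89 (edgeR, adjusted p = 0.0417), a call lost again without any 1 of 7 further samples. The beta C chain is known mostly from mammalian liver, where it can pair with other beta chains.

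Myostatin, the ligand that restrains muscle growth, was not called in Adductor minus trunk. The mstna1 probe recognises both mstna loci per the authors' list, and its reference-scaled counts were 33.3, 352, 86.5 and 323 in Adductor, against 262, 203 and 341 in Epaxial and 225, 437 and 157 in Hypaxial. Of the Adductor samples, 2 lay below the trunk range and 2 inside it. The log2 difference was −0.44 ± 0.89, and −0.09 ± 0.95 without Adductor 1 (edgeR, adjusted p = 0.916 and 0.972), intervals wide enough to hold a change of over 2-fold either way. Of 25 alternatives 1 called it, the replicate number as a block in the 10 samples alone, at −1.15 ± 0.40 (edgeR, adjusted p = 0.032). The copies mstnb1 and mstnb2 had mean counts of 8.75 and 5.5 in Adductor, against 8.33 and 7.5 in trunk, close to the negative controls, and their differences were 0.50 ± 0.98 and −0.34 ± 1.02.

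The other ligand probes were low in all 3 muscles. The 4 activin beta A probes ran from −0.64 to 1.15, the gdf11 probes from −0.02 to 0.22 and the inhibin alpha probes from −0.42 to −0.08, and none passed. For inhbaa1 the reference-scaled counts were 12.1, 10.2, 7.14 and 13.7 in Adductor, against 6.43, 3.38 and 0.576 in Epaxial and 13.6, 4.43 and 5.98 in Hypaxial. This gene falls outside the naming rule and was chosen after its values were seen, since pathway scaling called it higher. Apart from leaving out 1 sample in turn, 3 alternatives called inhbaa1 higher, pathway scaling among them. Its main log2 difference of 1.15 ± 0.65 did not pass (edgeR, adjusted p = 0.328), and it exceeded the background threshold in 2 of 4 Adductor and 0 of 6 trunk samples.

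Of the 10 type I receptor probes, 2 passed, a share near the 14.3% of all 49 genes. The acvr1c copies encode a type I receptor that in mammals is known from fat, and acvr1ca2 (gene 110520051, chromosome 3) had reference-scaled counts of 12.1, 7.25, 6.35 and 10.1 in Adductor, against 57.9, 67.5 and 52.4 in Epaxial and 56.3, 33.3 and 28.8 in Hypaxial. The groups did not overlap, with a log2 difference of −2.47 ± 0.84 (edgeR, adjusted p = 0.036). It exceeded the background threshold in 1 of 4 Adductor and 6 of 6 trunk samples, and with the negative controls subtracted the call was lost (edgeR, adjusted p = 0.101). It was also lost without Adductor 2, 3 or 4, Epaxial 2 or Hypaxial 1 (adjusted p between 0.0584 and 0.142). The duplicate acvr1ca1 (gene 110501520, chromosome 22) had 60.5, 116, 114 and 108 in Adductor, against 166, 86.1 and 179 in Epaxial and 131, 217 and 156 in Hypaxial. These ranges overlapped, and the difference of −0.63 ± 0.63 did not pass (edgeR, adjusted p = 0.787). The acvr1ca1 count exceeded background in 3 of 4 Adductor samples, all but Adductor 1, and in 6 of 6 trunk samples. In Visceral Fat of the same atlas acvr1ca1 was 243 ± 137 and acvr1ca2 26.5 ± 18.8 on this scale (SD, n = 3). In trunk acvr1ca2 was 49.4 ± 15.1 (SD, n = 6). The summed level of both copies ran from 72.6 to 123 in Adductor, against 154 to 251 in trunk and 168 to 449 in Visceral Fat, with no value at 0, and the part of fat cells in the result was not tested.

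The smallest called difference was that of acvr1ab2 (gene 110528876, chromosome 7), a copy of the type I receptor gene acvr1a. Its reference-scaled counts were 154, 148, 109.5 and 117 in Adductor, against 229.8, 290.3 and 219 in Epaxial and 266, 244 and 164 in Hypaxial. The lowest trunk sample, Hypaxial 3, lay just above the highest Adductor sample. The log2 difference was −0.83 ± 0.29 (edgeR, adjusted p = 0.036), and pathway scaling brought it to −0.22 (adjusted p = 0.692), so this call belongs to the reference-gene scale. It was lost without any 1 of Adductor 2, 3 and 4, Epaxial 2, Hypaxial 1 and Hypaxial 2 (edgeR, adjusted p between 0.0615 and 0.15). The duplicate acvr1ab1 was measured at −0.78 ± 0.32 and did not pass (edgeR, adjusted p = 0.0999). The 4 acvr1b probes, copies of the main type I receptor of activin, ran from −1.17 to −0.11 with none called.

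The type II receptors, which bind the ligands first, were not called in either direction, but with 7 probes and 14.3% of all 49 genes called, that count says little about the class. The 4 acvr2a probes ran from −0.50 to −0.17 and the 3 acvr2b probes from −0.31 to 0.33. The 3 probes of receptor-regulated Smads, smad2a2 among them, which recognises both smad2 loci per the authors' list, ran from −0.46 to 0.17 with none called. The inhibitory Smads were at 0.03 ± 0.56 (smad6a1) and −0.34 ± 0.42 (smad7b2), and neither passed.

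Besides smad4aa1, 6 probes of common Smads were measured between −0.44 and 0.70 and none passed. The largest positive difference among genes with at least 20 counts in the higher muscle was that of smad4bb1, at 0.70 ± 0.40 (edgeR, adjusted p = 0.328), with reference-scaled counts of 54.5, 60.9, 47.6 and 45.7 in Adductor, against 25.7, 25.3 and 26.5 in Epaxial and 71.9, 18.8 and 28.8 in Hypaxial. All Adductor samples lay above 5 of the 6 trunk samples and below Hypaxial 1. Next came smad4bb2 at 0.45 ± 0.42, smad3a1 at 0.17 ± 0.40, smad4ba1 at 0.06 ± 0.38, smad6a1 as above and acvr1aa2 at 0.01 ± 0.46, none of them called. Apart from leaving out 1 sample in turn, 4 alternatives called smad4bb1 higher and 1 called smad4bb2 higher. As a share of a sample's pathway count, smad4bb1 took 2.18 to 3.52% in Adductor, against 0.619 to 2.06% in trunk, without overlap. This is not particular to smad4bb1. Shares also lay wholly above trunk for smad4ba1 (2.56 to 3.91%, against 1.52 to 2.50%), acvr2ba2, acvr2bb and inhbaa1. They lay wholly below trunk for smad4aa1, bambia1, bambia2, fsta, inhbbb2 and acvr1ca2. A share also rises when other genes take less of the count.

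**Figure D3:**
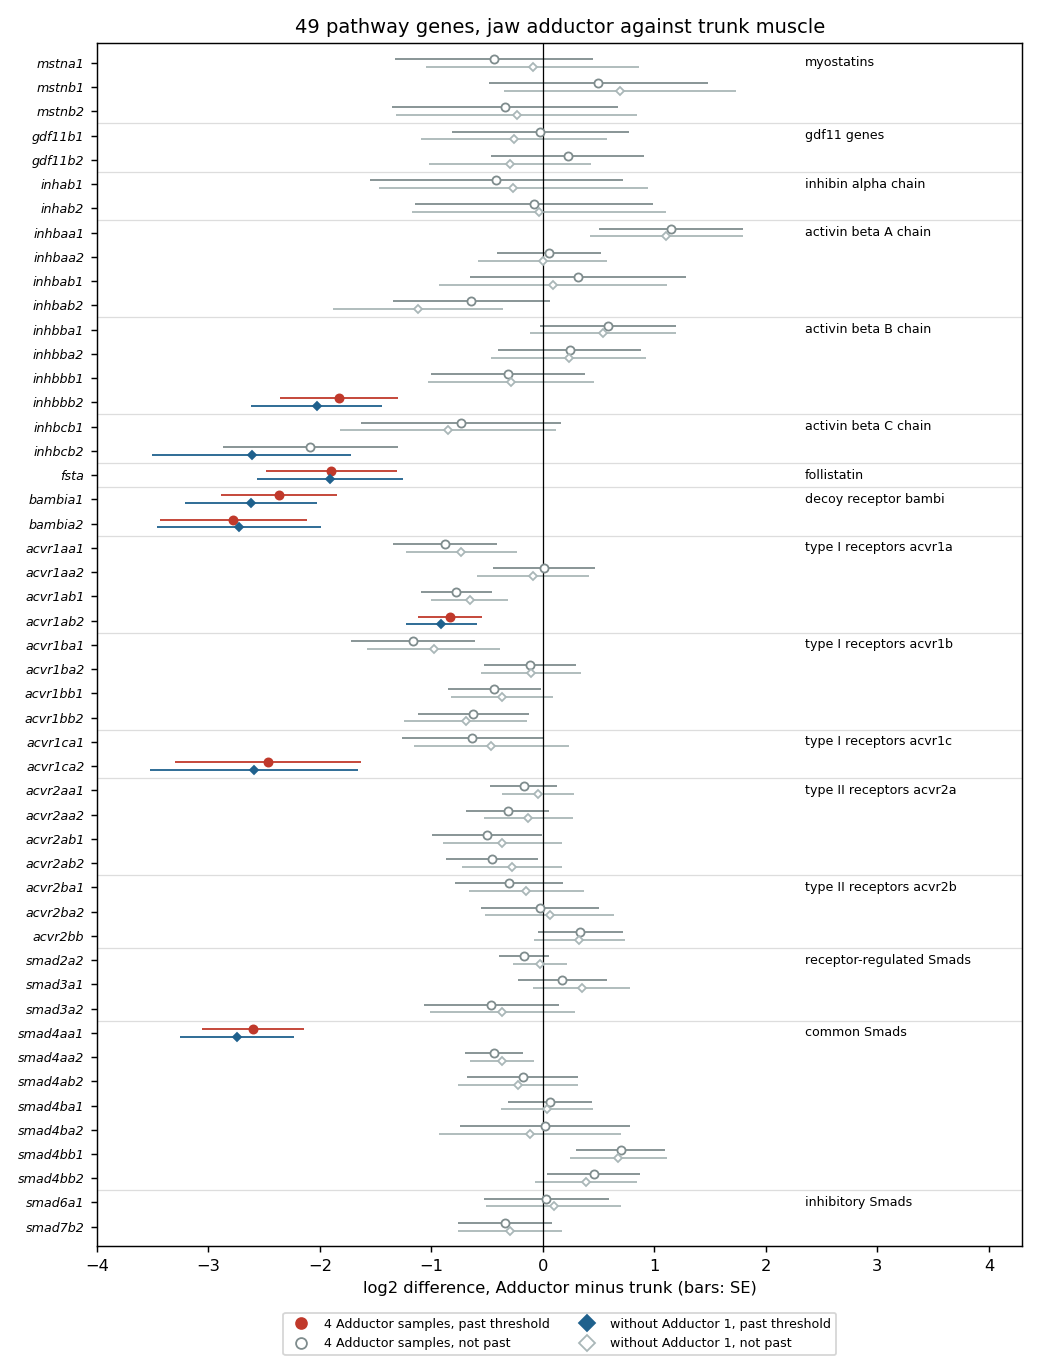
Log2 differences (Adductor minus trunk) of the 49 pathway genes with their standard errors, grouped by role; circles use all 4 Adductor samples, diamonds leave out Adductor 1, and filled symbols passed the adjusted threshold of 0.05. The 7 filled circles and 8 filled diamonds all lie left of 0, and most of the other genes lie within 1 log2 unit of it.

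In some duplicate pairs the copies changed unequally. The ratio of the first copy to the second within a sample is free of the scaling between samples, but not of background. It differed between Adductor and trunk in 4 of 21 pairs (19%, a quasi-likelihood test in edgeR of the interaction of copy and tissue, adjusted over 21 pairs), while 17 pairs did not pass. The targets of both copies share at most 5 to 8 bases in a row across the 21 pairs. These runs compare the targets with each other and not with the transcript of the other copy. They therefore do not show that a probe tells the copies apart. Per the authors' list, the inhab1 probe recognises both inhab loci and the acvr2ba1 probe is shared with the acvr2ba2 locus. Yet the longest runs shared by the targets of these pairs are 8 and 6 bases. In these 2 pairs the ratio is not that of the first copy over the second. The probes of a pair may differ in efficiency, so only the change of a ratio between muscles can be read.

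In the smad4aa pair, smad4aa1 made up 31.6, 29.2, 14.5 and 19.4% of the pair's count in Adductor, against 54.2, 72.6 and 45.0% in Epaxial and 58.7, 50.8 and 47.4% in Hypaxial. The shares did not overlap, at 23.7 ± 8.08% in Adductor (SD, n = 4) and 54.8 ± 9.98% in trunk (SD, n = 6). The log2 change of the ratio was −2.11 ± 0.37 (edgeR, adjusted p = 1.22e-05).

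In the acvr1c pair, acvr1ca1 made up 90.9 ± 5.25% of the count in Adductor (SD, n = 4) and 74.8 ± 11.1% in trunk (SD, n = 6), with overlapping ranges. The log2 change of the ratio was 1.89 ± 0.43 (edgeR, adjusted p = 4.68e-04). The calls depend on the copies being told apart, which the target windows of this pair and of the next pairs do not show by themselves. Capitals mark the longest shared run.
acvr1ca1: gctgaaacaagaAACACTcagctgggtcgt
acvr1ca2: actgcttatgtgAACACTaatgccattgtc
inhbbb1: cgtccggaaatCAAAATGgcttccgtgtca
inhbbb2: aagtatgagtgCAAAATGtatagtgaaagc
inhbcb1: ccgtgacaacttCAAGCAcatcctccagag
inhbcb2: tactcagctgtaCAAGCAaacatttagcta

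In the inhbbb pair the first copy took 30, 46.7, 37.5 and 50% in Adductor, against 7.69 to 29.5% in trunk, without overlap. The log2 change was 1.56 ± 0.52 (edgeR, adjusted p = 0.0307). In the inhbcb pair it took 13.0, 18.5, 28.0 and 26.7% in Adductor, against 2.5 to 14.2% in trunk, where only Adductor 1 fell inside the trunk range. The change was 1.78 ± 0.65 (edgeR, adjusted p = 0.0407). The first copies inhbbb1 and inhbcb1 had mean counts of 11.5 and 6.75 in Adductor, against 15.8 and 11.8 in trunk, near the negative controls. Limited to pairs whose copies each averaged 20 counts or more on their higher side, the calls were 2 of 10 (smad4aa and acvr1c). This filter does not remove low counts in Adductor, where acvr1ca2 averaged 9.75 counts, against 55.3 in trunk. Leaving out Adductor 2, Adductor 4 or Hypaxial 2 also left the smad4aa and acvr1c pairs, 2 of 21. Over 13 alternatives that tested them, the inhbcb call was lost in 8 and the inhbbb call in 4. The smad4aa and acvr1c calls were kept in all 14 of theirs.

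For the bambi pair the share of bambia1 was 84.6 ± 9.43% in Adductor and 80.5 ± 2.87% in trunk (SD, n = 4 and 6), and the change of the ratio, 0.24 ± 0.50, did not pass (edgeR, adjusted p = 0.842). The acvr1ba pair had the next largest change among pairs whose copies each averaged at least 20 counts on their higher side, −0.96 ± 0.50. It did not pass (edgeR, adjusted p = 0.259).

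**Figure D4:**
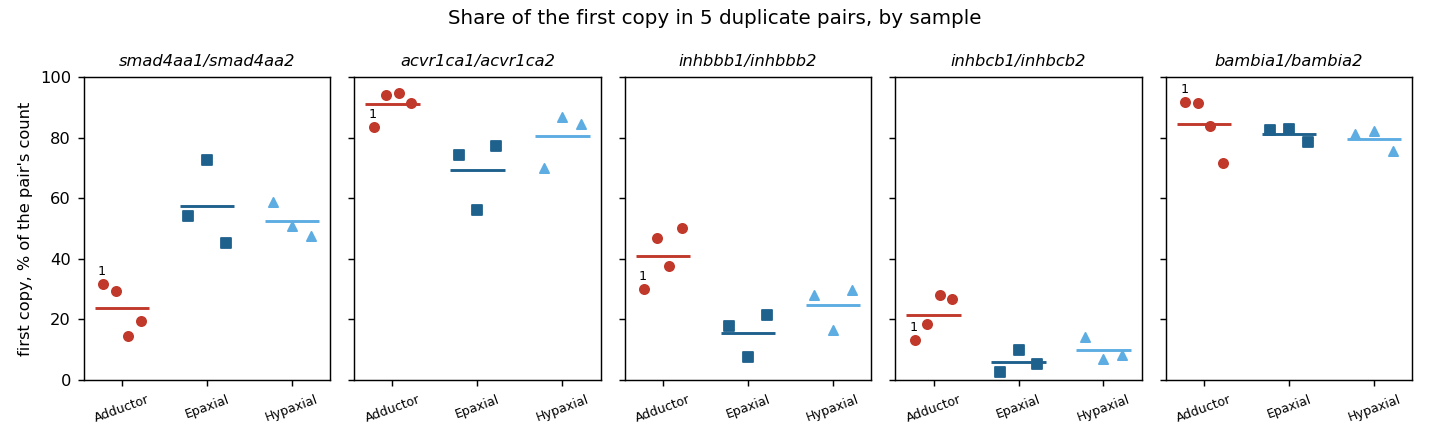
Share of the first copy in the count of each duplicate pair (percent), in every sample of Adductor (circles, Adductor 1 marked), Epaxial (squares) and Hypaxial (triangles), with group means as lines. The smad4aa and inhbbb shares separate Adductor from trunk without overlap, the acvr1c and inhbcb shares passed the test with overlap, and the bambi share did not pass.

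The trunk muscles were also taken one at a time. Both contrasts use the same 4 Adductor samples, so they are not independent. Against Epaxial, 6 of 49 genes were lower in Adductor (12.2%) and 0 higher: bambia2 at −2.88 ± 0.72, acvr1ca2 at −2.76 ± 0.92, smad4aa1 at −2.70 ± 0.50, bambia1 at −2.53 ± 0.57, inhbbb2 at −2.03 ± 0.59 and fsta at −1.97 ± 0.65. Against Hypaxial, 3 of 49 were lower (6.12%) and 0 higher: bambia2 at −2.68 ± 0.71, smad4aa1 at −2.50 ± 0.49 and bambia1 at −2.20 ± 0.57. There acvr1ca2 (−2.17), inhbcb2 (−1.90), fsta (−1.82) and inhbbb2 (−1.63) were measured below Hypaxial without passing. All 8 low genes were without overlap in both contrasts, which follows from their lying below all 6 trunk samples and adds no evidence. Of the 49 genes, these 8 included, 22.4% did not overlap against Epaxial and 18.4% against Hypaxial. The measured positive differences with at least 20 counts were led by smad4bb1, at 1.01 ± 0.49 against Epaxial and 0.39 ± 0.48 against Hypaxial, and smad4bb2, at 0.67 ± 0.51 and 0.24 ± 0.49 in the same order. Leaving out Adductor 2, Adductor 3 or Adductor 4 left 3 genes against Epaxial. Against Hypaxial, 1 gene was left without Hypaxial 1, and 5 were called without Hypaxial 3.

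Epaxial and Hypaxial were not separated from each other. With edgeR 0 of 49 genes passed, 0 had an unadjusted p under 0.05, and 1 gene did not overlap (2.04%), acvr2ba1, at 0.83 ± 0.60, whose probe also recognises the acvr2ba2 locus. The 8 genes that were low in Adductor had differences of 0.13 to 0.59 between Epaxial and Hypaxial, with standard errors of 0.35 to 0.91.

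As a share of a sample's pathway count, a measure without reference genes, the 8 low genes made up 24.3, 13.7, 12.2 and 11.5% in Adductor 1 to 4, against 35.3, 42.9 and 29.1% in Epaxial and 32.5, 30.2 and 28.5% in Hypaxial. No Adductor sample reached the lowest trunk sample in this summed share. Taken singly, the shares overlapped for acvr1ab2, at 5.61 to 9.98% in Adductor and 7.62 to 8.82% in trunk. They also overlapped for inhbcb2, at 0.72 to 3.91% in Adductor and 3.44 to 6.15% in trunk. These genes were chosen from the same contrast, so the shares describe and do not test. The reference-scaled sum of all 49 genes was 1546, 2097, 1831 and 2094 in Adductor, against 2736, 3291 and 2645 in Epaxial and 3492, 3044 and 1991 in Hypaxial. The mean log2 difference was −0.59, or 1.5-fold lower in Adductor (two-sided exact permutation test over samples, p = 0.0286, smallest possible 0.00952). Without Adductor 1 it was 1.41-fold lower, and without Adductor 3 it was 1.49-fold lower (exact permutation p = 0.0714 in both). The call on the sum was lost in both, though without Adductor 3 the size was nearly that with all samples. Fewer samples also allow fewer splits, so the smallest possible p is larger there. The sum includes the 8 low genes, so it is not evidence apart from theirs, and the sum of the remaining genes was not tested. The geometric mean of the reference genes over that of the positive controls did not separate the muscles, at a log2 difference of −0.28 (exact permutation p = 0.705), and its sign turned to 0.31 without Adductor 1.

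Across the 7 muscles of the atlas, the 8 genes had a shared order of mean levels, given here as a description with no test. Caudal Skeletal Muscle (n = 2) and Epaxial held ranks 1 and 2 for each of the 8 genes, and Hypaxial held rank 3 for each. Adductor ranked between 5 and 7, Extraocular Muscle between 4 and 7, Red Skeletal Muscle 5 or 6, and Pelvic Fin Skeletal Muscle 4 or 5. For smad4aa1 the mean reference-scaled counts were 27.4 ± 6.59 in Adductor, 21.2 ± 22.3 in Red and 19.8 ± 13.5 in Extraocular, which do not differ beyond their spread, and 90.2 ± 76.2 in Pelvic Fin, 153 ± 53.4 in Hypaxial, 176 ± 92.9 in Epaxial and 223 ± 3.86 in Caudal (SD). For acvr1ca2, Adductor had the lowest mean, 8.94 ± 2.63, against 19.8 ± 23.3 in Red and 35.3 ± 41.6 in Extraocular, both with a spread as large as the mean. The 8 genes together took 15.4 ± 5.98% of the pathway count in Adductor, 13.3 ± 1.95% in Red, 14.3 ± 3.63% in Extraocular, 25.6 ± 10.9% in Pelvic Fin, 30.4 ± 2.04% in Hypaxial, 35.8 ± 6.92% in Epaxial and 36.5 ± 3.24% in Caudal.

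**Figure D5:**
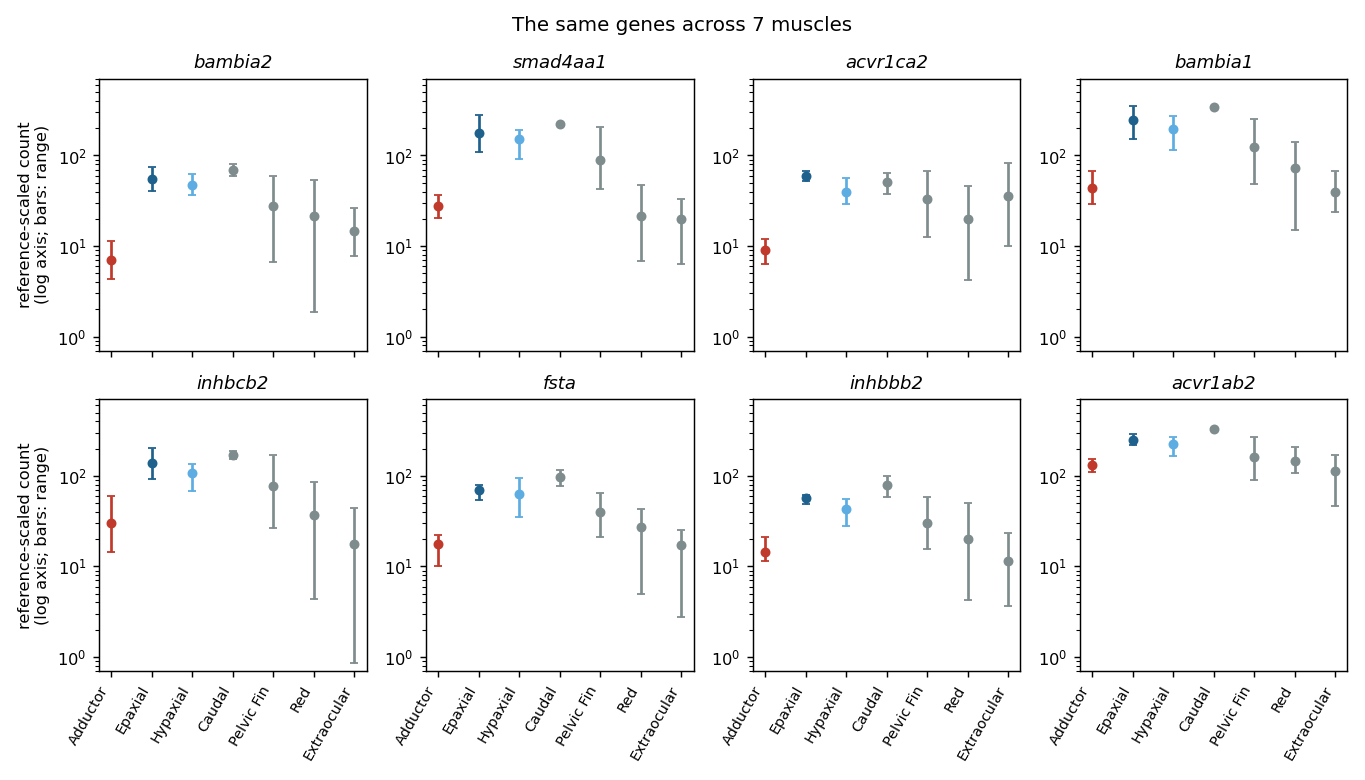
Mean reference-scaled count (log axis) of the 8 genes in the 7 muscles, with bars from the lowest to the highest sample; Adductor is red, Epaxial and Hypaxial are blue, and the other muscles grey. The Adductor mean lies below those of Epaxial, Hypaxial and Caudal in each panel, while Pelvic Fin spans a wide range.

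The authors' deposited table of normalized signal holds 1 pooled value per gene and tissue. In the authors' deposited table bambia1 is 154 in Adductor, against 1373 in Epaxial and 1087 in Hypaxial, and inhbcb2 is 83.4 in Adductor, against 788 in Epaxial and 609 in Hypaxial. Over 48 genes the Adductor values match the geometric mean of Adductor 2, 3 and 4, without Adductor 1, and those of Epaxial and Hypaxial match the geometric mean of all 3 replicates each. The match leaves a constant that differs by −0.43 log2 units between Adductor and trunk, so values of the authors' deposited table are lower in Adductor by that amount before any gene is considered.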

How the data were processed

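RNA of 10 muscle samples was measured by NanoString. The authors deposited raw barcode counts per probe and sample, whole numbers with no normalization in the file and no stated export step. The lowest count was 1 and none was 0; a floor of 1 set before deposit is possible. The authors deposited a second table of normalized signal with 1 pooled value per gene and tissue, with no stated method, which was matched to the counts to find which replicates it holds and is quoted for a pair of genes. Gene identity, chromosome and probe notes came from the authors' gene list, and target sequences from the authors' probe list; neither names a genome build. Per the labels' protocols, RNA extraction varied by tissue. No per-sample column was left out.

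Counts were fitted with edgeR 4.0.16 (quasi-likelihood, R 4.3.3) over all 70 samples, with 1 coefficient per tissue and a per-sample offset, the log of the geometric mean of the reference genes. Contrasts were Adductor minus the mean of Epaxial and Hypaxial, with and without Adductor 1, each trunk muscle alone, and Epaxial minus Hypaxial. P-values are two-sided, adjusted by Benjamini-Hochberg over 49 genes or 21 pairs with a threshold of 0.05. Standard errors are the log2 difference over the root of F. Reference-scaled counts are for display. Single values used exact permutation tests over samples (210 splits of 4 against 6). Alternatives used limma 3.58.1, DESeq2 1.42.0 and other scalings, filters and sample sets. Python 3.11.15 with scipy 1.17.1 and matplotlib 3.10.9 did the rest.

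In simulated data for Adductor minus trunk over 49 genes, 0.721% of unchanged genes were called, and 22.8 and 68.3% of genes changed by 1 and 2 log2 units, so most changes of 1 log2 unit would be missed. For the pair test over 21 pairs, 0% of unchanged pairs and 2.5 and 27.5% of pairs changed by 1 and 2 log2 units were called. The simulated samples were independent, followed the fitted model with the reference factors as the true scale, and had no background difference between muscles. These rates therefore do not cover errors of the scale or of background in the real data. Replicates of a muscle differed beyond sampling noise, with a lowest chi-square per degree of freedom of 2.71, so none was counted as a copy. The design text calls the replicates biological. Same-numbered Epaxial and Adductor samples had correlations of 0.106, 0.136 and 0.301 in their deviations from group means, so for Adductor minus Epaxial the numbers were taken to pair the samples, from the data and not the labels. These correlations are low and were not compared with those of unlike numbers, so the pairing is an assumption. The main Epaxial contrast has no block, so the pairing was not used in it. With Hypaxial, numbers 1 and 3 gave 0.22 and 0.32 against Adductor, and 0.21 and 0.34 against Epaxial. Number 2 gave −0.17 against Adductor and −0.23 against Epaxial, and the Hypaxial numbers were not taken as pairs.

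The comparison, the gene lists and the tests were chosen with earlier results of these data known. In each comparison, called genes that averaged 20 counts or more on their higher side were named, up to 12 per direction, with the largest differences added up to 6; the myostatins, fsta, smad4aa1, bambi, acvr1c and inhbcb2 were always named. Counting error alone does not cover differences between fish, and precision at low counts is limited by the negative controls.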

Additional observations from a re-analysis of the deposited data

Results flagged for a closer look

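Within the 4 Adductor samples, 51 values were searched for a sample far from its group by Dixon's criterion. Chance meets this criterion in about 1 of 20 groups. The search found 2, both in Adductor 1, which is not above that rate. The reference-scaled count of acvr1ca1 was 60.5 in Adductor 1, against 108 to 116 in the other Adductor samples, with a gap of 0.853 of the range. The reference-scaled count of inhbbb2 was 21.2 in Adductor 1, against 11.6 to 12.3 in the others, with a gap of 0.923 of the range. Adductor 1 is the sample with 511 pathway counts. Its acvr1ca1 value rests on 20 counts, which did not exceed the background threshold. Its inhbbb2 value rests on 7 counts, beside a mean of 8.62 counts per negative control.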

How the results depend on the processing

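No result changed direction among those called. For Adductor minus trunk (7 genes), positive control scaling gave 4 and the exact permutation test per gene, added after seeing the data, gave 0, with 11 genes at an unadjusted p under 0.05. There 8 genes were at the smallest possible p of 0.00952 and an adjusted p of 0.0583, so 4 against 6 samples could not pass with 8 genes. Leaving out 1 sample in turn gave 3 to 8 genes (3 without Adductor 2 or Adductor 4, 4 without Hypaxial 1). Without Adductor 1 (8 genes), positive control scaling gave 2, the replicate block 4, and leaving out another sample 2 to 8: 2 without Adductor 2 or Adductor 3, 3 without Adductor 4, and 4 without Epaxial 1, Epaxial 2, Hypaxial 1 or Hypaxial 2. The cause was not tested, beyond fewer samples in these fits. Leaving out 1 sample gave 3 to 5 genes for Adductor minus Epaxial (6 with all), 1 to 5 for Adductor minus Hypaxial (3 with all), 0 for Epaxial minus Hypaxial, and 2 to 4 pairs (4 with all). Pairs whose copies each averaged 20 counts or more on their higher side gave 2. The pathway sum was −0.87 with positive control scaling (exact permutation p = 0.295) and −0.69 to −0.49 without 1 sample. The reference factor ran from −0.77 to 0.31 without 1 sample, never called. With the replicate number as a block, Adductor minus trunk gave 5 genes over all samples, without acvr1ca2 and acvr1ab2, and 8 over the 10 samples alone, 6 of the 7 (without acvr1ab2) with inhbcb2 and mstna1. Without Adductor 1, the 4 left under the block were smad4aa1, bambia1, bambia2 and inhbbb2. The block over all samples gave the same 6 genes against Epaxial, the same 3 against Hypaxial, and 0 between Epaxial and Hypaxial. In that fit the effect of a replicate number is shared by all tissues. It is therefore not a pairing of Epaxial with Adductor samples, and the assumed pairing was not tested by it.

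Over 25 alternatives smad4aa1 ran from −3.11 to −1.41 and bambia1 from −2.62 to −1.49, each called in 24, all but the exact permutation test, and both were called in all 17 alternatives without Adductor 1. The call on acvr1ab2 was lost in 17 of 25 alternatives, acvr1ca2 in 10, fsta in 6 and inhbbb2 in 4, while inhbcb2 was gained in 10. Scaling without Adductor 1 gave 7 lower and 3 higher genes with pathway genes, 7 and 1 with TMM, and 5 and 2 with negative controls subtracted. Limiting the fit to samples that share 1 scale in the authors' table was not run. A pooled value does not show which Adductor samples differ, or whether all do. The fits without Adductor 1 and 1 more Adductor sample used the raw counts and not the authors' values, so they cannot test that scale. At fewer than about 20 counts, background limits what can be read.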
